A study of Rattus norvegicus with 16 samples.

Results

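The genes described are Pnpla2, Pnpla3 and Pnpla5, patatin-like enzymes of the lipid droplet, with Abhd5 and G0s2, the activator and the inhibitor of Pnpla2. They are 5 of the 22517 gene symbols in the files, were selected on their values in these libraries, and are set out as the fasting lipase and its cofactors against the relatives induced by feeding. RNA of liver and epididymal fat was sequenced from 8 male obese Zucker rats (ZDF/GmiCrl-fa/fa), whose fa/fa genotype leaves them without a working leptin receptor, so that all groups shared this defect. LA rats ate Purina 5008 chow with added R-α-lipoic acid, a sulphur-containing cofactor of mitochondrial enzyme complexes, and PF rats were pair-fed the same chow without it. Both diets ran for 2 weeks, from 9 to 11 weeks of age, with rations given in 2-day portions, and the labels do not state the time between the last ration and sampling. Groups were LA fat, PF fat, LA liver and PF liver, with 4 libraries each, and both tissues came from the same rats. No lean animals and no rats with free access to food were among them.

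Stored fat is kept as triglyceride in lipid droplets. Pnpla2, also called adipose triglyceride lipase, removes the first fatty acid, and hormone-sensitive lipase (Lipe) and monoacylglycerol lipase (Mgll) remove the others. Abhd5, also called CGI-58, raises the activity of Pnpla2 when the droplet coat releases it, while G0s2 binds Pnpla2 and blocks it. In rodents Pnpla2 RNA goes up with fasting, when insulin is low and FOXO1 is active. Pnpla3, or adiponutrin, sits on the same droplets, is induced by carbohydrate and insulin through SREBP-1c and ChREBP, and in mouse and human cells binds Abhd5. Pnpla5 is a close relative of Pnpla3 and its neighbour in the rat genome.

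The stretch around the start of each gene, 250 bases before it and 50 after, is shown for the lipase and for the adjacent pair, since these genes lie at the ends of the contrast. The sequences are from RefSeq, build GRCr8, 5′ to 3′ on the gene's own strand, and capitals mark the motif matches named after them. Pnpla2 lies at chr1:205982029-205982328 on the plus strand, Pnpla3 at chr7:117173278-117173577 on the plus strand and Pnpla5 at chr7:117136987-117137286 on the minus strand.
Pnpla2: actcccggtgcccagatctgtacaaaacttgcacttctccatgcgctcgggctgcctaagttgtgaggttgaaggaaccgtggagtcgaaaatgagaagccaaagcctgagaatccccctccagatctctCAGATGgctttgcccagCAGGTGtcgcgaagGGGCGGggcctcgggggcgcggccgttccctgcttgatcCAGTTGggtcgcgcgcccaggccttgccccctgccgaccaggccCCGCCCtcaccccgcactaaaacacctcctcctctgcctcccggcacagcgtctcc
Pnpla3: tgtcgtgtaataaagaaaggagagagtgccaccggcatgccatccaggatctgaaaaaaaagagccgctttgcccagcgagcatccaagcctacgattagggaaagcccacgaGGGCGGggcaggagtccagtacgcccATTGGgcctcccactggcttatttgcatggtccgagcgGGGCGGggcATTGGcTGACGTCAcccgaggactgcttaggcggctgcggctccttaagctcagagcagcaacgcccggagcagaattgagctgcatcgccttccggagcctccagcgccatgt
Pnpla5: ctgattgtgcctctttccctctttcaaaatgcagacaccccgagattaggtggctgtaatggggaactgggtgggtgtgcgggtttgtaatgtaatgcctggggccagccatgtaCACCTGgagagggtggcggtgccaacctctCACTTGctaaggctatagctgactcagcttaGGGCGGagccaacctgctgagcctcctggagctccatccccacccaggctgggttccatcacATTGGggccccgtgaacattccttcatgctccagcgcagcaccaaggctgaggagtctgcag
All 5 genes had an entry in this table. On both strands, 7 motifs were searched, and the share of 33469 rat promoters of the same length that hold each was counted. The CCAAT box (CCAAT) was found 2 times at Pnpla3, 1 time at Pnpla5 and 0 times at Pnpla2, Abhd5 and G0s2, and 37.5% of all promoters hold it. The E-box (CANNTG) was found 3 times at Pnpla2, 2 times at Pnpla5, 1 time at G0s2 and 0 times at Pnpla3 and Abhd5, against 72.1% of promoters. A GC box (GGGCGG), held by 33.1% of promoters, was found at all 5 genes. The cyclic AMP response element (TGACGTCA), held by 1.83% of promoters, was found at Pnpla3, next to its second CCAAT box, and at none of the other 4. The letters searched for the sterol response element (TCACNCCAC, in 1.12% of promoters), the FOXO site (TGTTTAC, in 3.78%) and the TATA box (TATAAA, in 14.2%) were in none of the 5 windows. The share of G and C was 63.7% at Pnpla2, 60% at Pnpla3 and 57.7% at Pnpla5, above the median of 51.7% over all promoters. These matches are letters in a window, not sites shown to be bound.

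Levels are in FPKM, which divides a gene's fragments by the length of its transcript and by the depth of the library. Levels can thus be set side by side between genes, as far as the estimate of each gene holds. From 11276 to 11480 genes reached 1 FPKM in the fat libraries and from 9522 to 9738 in the liver libraries. Total read numbers are unknown, and the value of a single fragment, relative to PF liver replicate 1, was 0.722 to 0.894 in LA liver and 0.853 to 1 in PF liver, which makes LA liver on the whole the deeper group. Adipocyte markers summed to 38720 to 45510 FPKM in LA fat and 37440 to 44060 FPKM in PF fat, and hepatocyte markers to 34350 to 44340 FPKM in LA liver and 45410 to 54920 FPKM in PF liver, so both tissues carried the markers of their label. Alb, the liver's main secreted protein, is listed at exactly 0 in all liver libraries, so a 0 can be a failed estimate. In whole tissue, fewer cells of a type and less RNA per cell cannot be told apart.

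**Figure D1:**
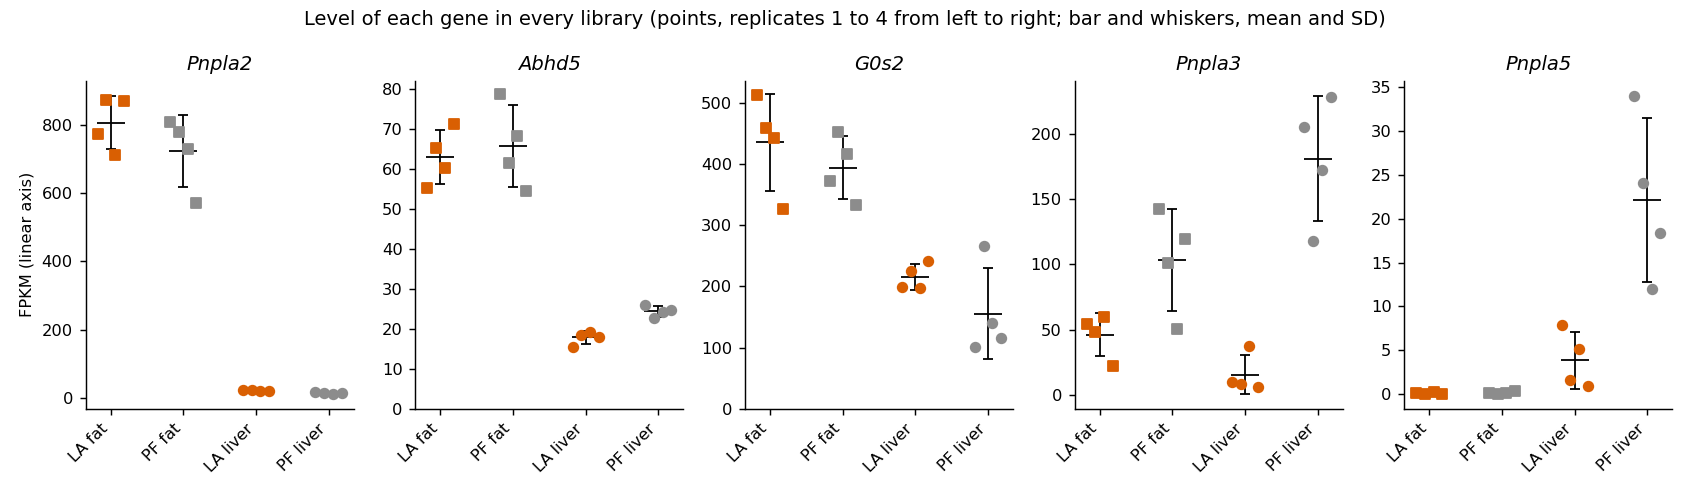
FPKM of each gene (linear axes, a scale of its own for each panel) in the 16 libraries, by group; points are libraries, the bar is the mean and the whiskers the SD of 4 libraries. Pnpla2 stood at 573 to 873 FPKM in fat and 11.5 to 22.5 FPKM in liver, while Pnpla3 and Pnpla5 were highest in PF liver.

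Pnpla2 was above all a fat transcript, and in liver it was modestly higher under LA. In fat it stood at 776, 873, 712 and 869.95 FPKM in LA rats and at 809, 781, 731 and 573 FPKM in PF rats. The diets overlapped there, with PF replicate 4 the lowest library. In liver it stood at 21.1, 22.5, 18.6 and 20.7 FPKM in LA rats and at 15.9, 15.0, 11.5 and 14.5 FPKM in PF rats, with every LA library above every PF library. LA liver averaged 20.7 ± 1.63 FPKM and PF liver 14.2 ± 1.93 FPKM (SD, n = 4 each), a ratio of the means of 1.46. Between tissues the means differed 39.0-fold in LA rats and 50.9-fold in PF rats, higher in fat. Of 12 adipocyte markers, Adipoq, Lep, Retn and Plin1 (listed as Plin) were at 0 in all 8 liver libraries, though a listed 0 can be a failed estimate. The summed markers there were 63.3 to 74.4 FPKM in LA rats and 59.7 to 72.1 FPKM in PF rats. Most of that was Cidec, at 53.3 to 60.7 and 48.5 to 54.8 FPKM, and 6 of the 12 were higher in mean in LA liver.

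Abhd5, the activator, went the other way from the lipase in liver. It stood at 15.6, 18.5, 19.3 and 18.1 FPKM in LA liver and at 26.0, 22.6, 24.2 and 24.6 FPKM in PF liver, again with no overlap between the diets but now lower under LA. The means were 17.8 ± 1.60 and 24.4 ± 1.39 FPKM (LA and PF liver, SD, n = 4 each), a ratio of 0.732. In fat it stood at 55.3, 65.2, 60.3 and 71.3 FPKM under LA and at 78.9, 61.5, 68.3 and 54.6 FPKM under PF, with the lowest and the highest library both in PF rats. Its mean was 3.53-fold higher in fat than in liver under LA and 2.70-fold under PF, a far smaller gap between tissues than that of the lipase.

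G0s2, the inhibitor, was abundant in both tissues. In fat it stood at 513, 459, 444 and 326 FPKM under LA and at 373, 452, 417 and 334 FPKM under PF, so the diets overlapped. In liver the LA libraries lay close together at 198, 225, 197 and 242 FPKM. The PF libraries were at 101, 265, 140 and 116 FPKM, so 3 of the 4 were below all LA libraries and PF replicate 2 was above them. The means were 216 ± 21.9 FPKM in LA liver and 156 ± 75.0 FPKM in PF liver (SD, n = 4 each). Levels in fat exceeded those in liver 2.02-fold under LA and 2.53-fold under PF, and no liver library reached the fat libraries.

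Pnpla3 had the widest range of the 5 genes within a tissue, on the log2 scale. In liver it stood at 10.1, 8.66, 37.5 and 6.04 FPKM in LA rats, with replicate 3 well above the others, and at 205, 118, 172 and 228 FPKM in PF rats. The highest LA library thus lay below the lowest PF library, and the LA mean of 15.6 ± 14.7 FPKM was 11.6-fold below the PF mean of 181 ± 48.0 FPKM (SD, n = 4 each). Without LA replicate 3 the LA mean was 8.27 FPKM, 21.9-fold below the PF mean. In fat it stood at 53.9, 48.5, 59.5 and 22.3 FPKM in LA rats and at 142, 101, 50.2 and 120 FPKM in PF rats. PF replicate 3 lay within the LA range, and the other 3 PF libraries lay above it. The means in fat were 46.1 ± 16.5 FPKM under LA and 103 ± 39.1 FPKM under PF.

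Under LA the mean of Pnpla3 in fat was 2.96 times that in liver, and under PF it was 0.570 times that in liver, so the order of the tissues differed between the diets. The LA ratio was 5.57 without LA liver replicate 3. From low to high the means ran LA liver, LA fat, PF fat and PF liver, and each group overlapped its neighbour in that order. LA fat and PF liver, by contrast, did not overlap, nor did LA liver and PF fat.

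Pnpla5 was a liver transcript. It stood at 7.84, 1.52, 5.14 and 0.866 FPKM in LA liver and at 34.0, 24.0, 12.0 and 18.4 FPKM in PF liver, with no overlap. The means were 3.84 ± 3.26 FPKM under LA and 22.1 ± 9.36 FPKM under PF (SD, n = 4 each), 5.75-fold apart, and 8.80-fold without LA replicate 1. In fat it was listed at 0.0675, 0, 0.197 and 0 FPKM under LA and at 0.0830, 0, 0.0340 and 0.311 FPKM under PF, which is under the 1 FPKM that the fit required, so no diet comparison was made there. The hepatocyte markers summed to 115 to 901 FPKM in LA fat and 442 to 1032 FPKM in PF fat, and their part in these low values was not tested. Alb averaged 242.5 FPKM in LA fat and 367.8 FPKM in PF fat. It is listed at 0 in liver, so these sums cannot be set against those of liver.

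**Figure D2:**
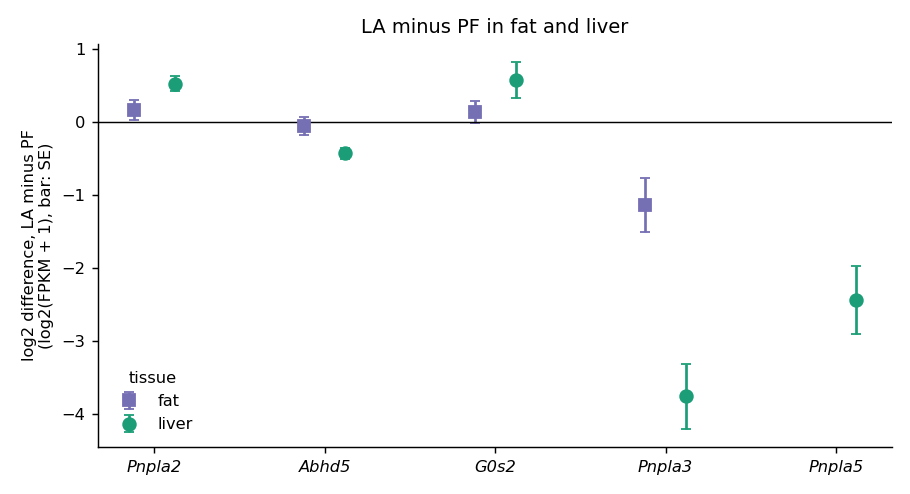
Difference LA minus PF of each gene on the log2(FPKM + 1) scale, for fat (squares) and liver (circles); bars are the standard error of the fit, and Pnpla5 has no value in fat. In liver Pnpla2 and G0s2 lie above 0 and Abhd5, Pnpla3 and Pnpla5 below it, while in fat Pnpla3 lies farthest from 0.

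On the log2(FPKM + 1) scale of the fit, LA minus PF in liver was 0.52 for Pnpla2 (SE 0.10) and 0.57 for G0s2 (SE 0.25). It was -0.43 for Abhd5 (SE 0.08), -3.76 for Pnpla3 (SE 0.44) and -2.44 for Pnpla5 (SE 0.47). Without PF liver replicate 2 the G0s2 difference was 0.86. In fat the differences were 0.17 for Pnpla2 (SE 0.13), -0.06 for Abhd5 (SE 0.13), 0.14 for G0s2 (SE 0.15) and -1.14 for Pnpla3 (SE 0.37). The sign of Abhd5 in fat turned without LA replicate 1 or PF replicate 1 (0.00 and 0.03), and its size moved by over 1.5 times without any 1 of the others but LA replicate 2. Pnpla2 in fat was at 0.06 without PF replicate 4. G0s2 in fat was at 0.05 without LA replicate 1, 0.27 without LA replicate 4, 0.20 without PF replicate 2 and 0.06 without PF replicate 4. No p is given for these 5 genes, because they were chosen with these values known.

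For the background, limma at an adjusted p under 0.05 called 4.48% of 9710 genes in liver, 2.27% higher and 2.21% lower under LA, and 12.3% had no overlap between the diets. Pnpla2, Abhd5, Pnpla3 and Pnpla5 were among both the called and the non-overlapping genes, 4 of 5. In fat 0.0174% of 11501 genes were called and 2.08% had no overlap, and 0 of the 4 genes tested and 0 of 5 were among them. The choice of the genes fixes these counts, and nothing is read from them. Fat as a whole gave 2 calls, with 451 genes at an unadjusted p under 0.05.

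Fat minus liver of the LA effect was 2.62 for Pnpla3 (SE 0.64), 2.39 for Pnpla5 (SE 0.54), 0.38 for Abhd5 (SE 0.15), -0.35 for Pnpla2 (SE 0.17) and -0.43 for G0s2 (SE 0.32). A positive value means that LA minus PF was higher, or less negative, in fat. The value of Pnpla5 rests on its level near 0 in fat. Across 12079 genes, 0.381% passed for this difference and 0 of the 5 were among them, with 991 genes of the 12079 at an unadjusted p under 0.05. The 5 were chosen with their values known and Pnpla5 entered this fit only through liver, so nothing is read from their count. The G0s2 value was -0.26 without PF liver replicate 1 and -0.72 without PF liver replicate 2.

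The tissue differences, fat minus liver, were 5.22 for Pnpla2 under LA (SE 0.10) and 5.57 under PF (SE 0.13). For Abhd5 they were 1.76 (SE 0.10) under LA and 1.39 (SE 0.11) under PF, and for G0s2 1.00 (SE 0.15) and 1.43 (SE 0.25). Pnpla3 had 1.76 (SE 0.49) under LA and -0.86 (SE 0.30) under PF, and Pnpla5 had -4.30 (SE 0.25) under PF. That last size depends on the pseudocount (-6.86 with 0.1), since Pnpla5 was near 0 in fat and entered the fit only through PF liver. With an adjusted p under 0.05 and a log2 difference over 1 in size, 46.4% of genes passed between the tissues under LA and 47.4% under PF. Without Pnpla5, 3 of the 4 genes passed under either diet. The exceptions were G0s2 under LA, at 0.9985 just under the cutoff, and Pnpla3 under PF, whose value was -0.55 without PF fat replicate 3. The genes were chosen with these values known, and nothing is read from these counts. The median of all genes was 0.65 under LA and 0.66 under PF. The tissue differences are therefore also given with each library centred on its own median over the tested genes. They were then 4.55 and 4.90 for Pnpla2, 1.09 and 0.71 for Abhd5, 0.33 and 0.76 for G0s2, and 1.09 and -1.53 for Pnpla3, LA first, with the same signs.

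**Figure D3:**
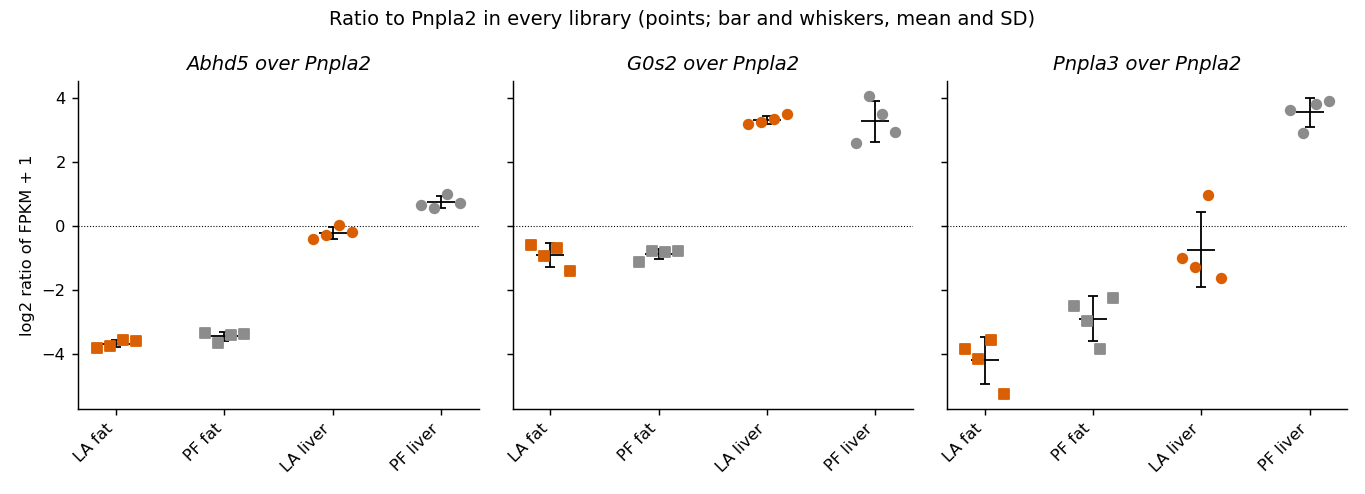
Log2 ratio of FPKM + 1 of Abhd5, G0s2 and Pnpla3 to Pnpla2 within each library; points are libraries, the bar is the mean and the whiskers the SD of 4 libraries, and 0 is an equal level. Fat libraries lie below 0 for all 3 genes, and for Pnpla3 the PF liver libraries stand above the LA liver libraries.

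Since FPKM is per length, the cofactors were also set against the lipase within each library. Such a ratio carries any error in the estimate of either gene, which was not tested. In fat the activator was at a median of 0.0783 times the lipase under LA and 0.0944 times under PF, and the inhibitor at 0.575 times under either diet, so the lipase transcript exceeded both. In liver Abhd5 ran at 0.739 to 1.03 times Pnpla2 under LA and at 1.51 to 2.11 times under PF, and these ranges did not overlap. G0s2 in liver was at a median of 10.3 times Pnpla2 under LA and 10.1 times under PF, with LA libraries between 9.41 and 11.7 times and PF libraries between 6.31 and 17.7 times. The inhibitor-to-lipase ratio thus differed more between the tissues than between the diets, on the log2 scale -0.90 ± 0.37 in LA fat, -0.87 ± 0.16 in PF fat, 3.32 ± 0.13 in LA liver and 3.27 ± 0.65 in PF liver (SD, n = 4 each).

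Pnpla3 was also set against Pnpla2, a pair chosen with its values known, so nothing is read from the size of the contrast. In liver the ratio was 0.292 to 2.02 under LA, with a median of 0.432, and 7.85 to 15.8 under PF, with a median of 14.0. In LA liver 1 library, replicate 3, held more Pnpla3 than Pnpla2 transcript, and in PF liver all 4 did. In fat the median ratio was 0.0625 under LA and 0.152 under PF, and the lipase exceeded Pnpla3 in all 8 libraries. Pnpla3 exceeded Pnpla5 in each of the 8 liver libraries, at a median of 6.33 times under LA and 9.22 times under PF.

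Within liver, log2(FPKM + 1) spanned 5.03 for Pnpla3 and 4.23 for Pnpla5 between the highest and the lowest library, and 1.39 for G0s2, 0.92 for Pnpla2 and 0.71 for Abhd5. In fat Pnpla3 spanned 2.62 and the other 3 measured genes 0.52 to 0.65. For the genes with a span of at least 2 in a tissue, the nearest genes were sought by the mean absolute difference of their centred log2 values over the 8 libraries of that tissue. A flat gene would stand at 1.88 from Pnpla3 and at 1.22 from Pnpla5 in liver.

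Nearest to Pnpla3 among 8340 liver genes was Pnpla5, at a distance of 0.76. Next came Scd1, the stearoyl-CoA desaturase, at 1.00, the fatty acid elongase Elovl6 at 1.08, Acly, the citrate lyase that feeds lipid synthesis, at 1.13 and Rgs16, a regulator of G protein signalling, at 1.16. Nearest to Pnpla5 were Scd1 at 0.37, the muscle adaptor gene Stac3 at 0.55, Rgs16 at 0.74, Pnpla3 at 0.76 and the apolipoprotein Apoa4 at 0.78. Both lists thus hold the desaturase and Rgs16. Scd1 averaged 1121 ± 565 FPKM in LA liver and 3390 ± 420 FPKM in PF liver, and Stac3 35.5 ± 23.7 and 84.7 ± 33.3 FPKM (LA and PF, SD, n = 4 each). Abhd5 ranked 239 by its distance to Pnpla3 in liver, but at 1.66 it stood little nearer than the 1.88 of a flat gene. Pnpla2 and G0s2 ranked 8129 and 8156 of the 8340, at 2.14 and 2.16. These ranks follow the direction of each gene under LA, which was known when the genes were chosen. These distances rest on 8 libraries of 2 diets and carry no test.

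In LA liver the replicates did not rank alike for the pair. Pnpla3 was highest in replicate 3 and lowest in replicate 4, and Pnpla5 was highest in replicate 1 and lowest in replicate 4. Scd1 was also lowest in LA replicate 4, at 379 FPKM. Across the PF livers Pnpla3 was lowest in replicate 2 and Pnpla5 in replicate 3.

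**Figure D4:**
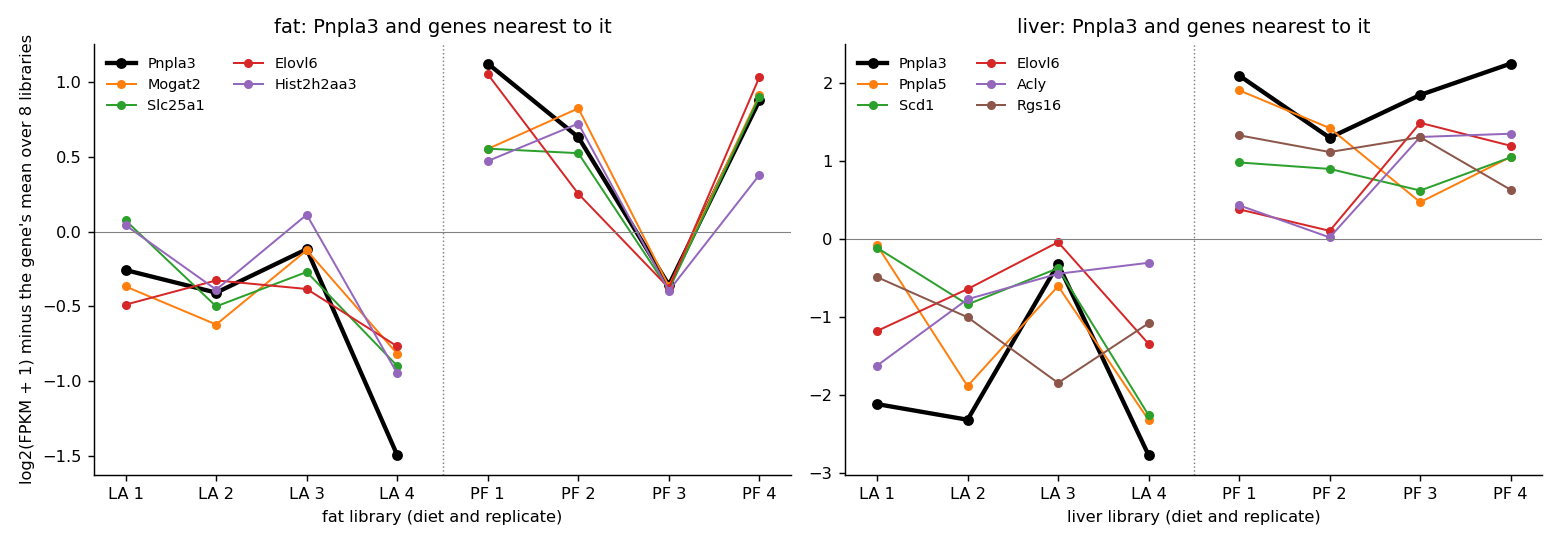
Log2(FPKM + 1) of Pnpla3 (black) and the nearest genes named in the text, each minus its own mean over the 8 libraries of the tissue, in fat (left) and liver (right); lines join the values of a gene and the replicates have no order. In fat PF replicate 3 lies within the LA range for all 5 genes drawn, and in liver all PF values lie above 0 and all LA values below it. The genes beside Pnpla3 were picked for closeness to it in these libraries, so their likeness follows from the choice.

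In fat the genes near Pnpla3, of 9852, included Mogat2, which makes diacylglycerol, at 0.23, the citrate carrier Slc25a1 at 0.24, Elovl6 at 0.24 and the histone gene Hist2h2aa3 at 0.30, against 0.66 for a flat gene. Reads of histone genes can be shared between near-identical copies, so the last is uncertain. PF fat replicate 3 was low for these 4 genes, with 2.90 FPKM of Mogat2, 88.2 FPKM of Slc25a1 and 4.05 FPKM of Elovl6, as it was for Pnpla3. The genes were picked for values close to those of Pnpla3 in these same libraries, so this likeness follows from the choice. Without PF fat replicate 3 the Pnpla3 difference in fat was -1.45, and with any other library left out it lay between -1.29 and -0.83. Elovl6 was among the 5 nearest to Pnpla3 in both tissues. Pnpla2, Abhd5 and G0s2 ranked 7285, 4032 and 7432 of 9852, at distances of 0.73, 0.65 and 0.73, near that of a flat gene.

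Pnpla5 and Pnpla3 are next to each other in the gene order of GRCr8 on chromosome 7, and the genes around them, were looked at after the values were seen. Samm50, of the mitochondrial outer membrane sorting machinery, follows Pnpla3 and stood at 37.0 ± 1.75 FPKM in LA liver and 38.2 ± 1.74 FPKM in PF liver (SD, n = 4 each; log2 difference -0.05, SE 0.07, limma adjusted p = 0.77). Parvb, a focal adhesion gene behind it, stood at 2.29 ± 0.530 and 3.43 ± 0.825 FPKM (LA and PF liver, SD, n = 4 each; log2 difference -0.42, SE 0.15, limma adjusted p = 0.145). On the other side Sult4a1 lies directly beside Pnpla5 and had no matched value. Efcab6, behind Sult4a1, averaged 0.198 FPKM in LA liver and 0.577 FPKM in PF liver, under the 1 FPKM minimum. Samm50 in fat was at 63.8 FPKM under LA and 61.5 FPKM under PF.

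Around these 5 genes, 8 lists of 111 genes of lipid storage and its control were counted, of which 105 matched a symbol in the files and 82 were tested in liver. Among those 82, 12 passed (14.6%, against 4.48% of all genes), and the lists were chosen with earlier results known. Of the other patatin-like genes 0 of 4 passed, with a median log2 difference of 0.04. Pnpla7, a lysophospholipase, stood nearest to passing at 31.3 ± 3.56 FPKM in LA liver and 24.3 ± 1.51 FPKM in PF liver (SD, n = 4 each; limma adjusted p = 0.0543). Without LA liver replicate 3, 1 gene of this list passed. The median over all genes in liver was -0.002.

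Among the lipases beside Pnpla2, 1 of 9 tested fell and 8 did not pass, with a median of 0.06. The gene that fell was Aadac, an esterase of the hepatocyte's endoplasmic reticulum, at 44.5 ± 0.52 FPKM in LA liver and 63.7 ± 4.16 FPKM in PF liver (SD, n = 4 each; log2 difference -0.50, SE 0.07, limma adjusted p = 0.00296). Lipe stood at 1.18 ± 0.167 FPKM under LA and 0.851 ± 0.0962 FPKM under PF (adjusted p = 0.19 with limma), and Mgll at 47.6 ± 4.68 and 36.7 ± 3.37 FPKM (LA and PF, n = 4 each, limma adjusted p = 0.0523). With the replicate numbers as a block 3 genes of this list passed.

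Of the droplet coat proteins 0 of 8 passed in liver, with a median of 0.12. Plin2, the main coat protein of liver droplets and listed as Adfp, had a log2 difference of 0.37 and Cidec, which fuses droplets, one of 0.18 (limma adjusted p of 0.57 and 0.18). Among the genes of droplet formation Dgat2, which completes triglyceride synthesis, fell to 206 ± 27.6 FPKM in LA liver, against 311 ± 43.3 FPKM in PF liver (log2 difference -0.59, limma adjusted p = 0.0233, n = 4 each), and 7 of 8 did not pass. The median of that list was -0.11.

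The hormone signalling list of lipolysis had 0 of 8 past the test in liver, with a median of -0.17 and all 8 lower in mean. In the insulin signalling list 1 of 13 rose, 1 fell and 11 did not pass. Trib3, a pseudokinase that inhibits Akt, rose to 15.9 ± 5.54 FPKM under LA, against 1.95 ± 0.756 FPKM under PF (log2 difference 2.50, SE 0.24, limma adjusted p = 0.000451, n = 4 each). Its relative Trib1 fell by 0.62 on the log2 scale (adjusted p = 0.0427). Foxo1 had a log2 difference of 0.04 (adjusted p = 0.93).

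Of the 16 tested genes induced by feeding through SREBP-1c and ChREBP, the side on which Pnpla3 and Pnpla5 are placed, 15 were lower in mean in LA liver. The test called 5 that fell and 0 that rose, 11 did not pass, and the median was -0.78. Pklr, the liver pyruvate kinase, fell by 0.91 on the log2 scale (limma adjusted p = 0.00219) and the lipogenic regulator Thrsp by 0.79 (adjusted p = 0.0117, but 0.257 with all 16 libraries in one model). Scd1, Elovl6 and Acly fell by 1.78, 1.60 and 1.57 (adjusted p of 0.0248, 0.0251 and 0.0283). Srebf1 itself stood at 114 ± 48.8 FPKM in LA liver and 192 ± 58.0 FPKM in PF liver (limma adjusted p = 0.13, n = 4 each), and at an adjusted p of 0.0309 without LA replicate 2. Of 12 hepatocyte markers 2 were higher in mean in LA liver and their sum was lower in all LA libraries than in all PF libraries. The fibroblast and stellate cell markers summed to 306 to 440 FPKM in LA liver and 545 to 628 FPKM in PF liver, mostly Dpt, with 3 of 9 higher in mean in LA liver, and Lrat, the retinol enzyme of stellate cells, stood at 3.96 to 4.84 FPKM in LA liver and 5.40 to 6.77 FPKM in PF liver. The part of these markers in the result was not tested.

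The genes induced by fasting through FOXO1 and PPARA, the side on which Pnpla2 is placed, had a median of 0.07. Of 16 tested in liver 3 rose, 0 fell and 13 did not pass. Acot2, a mitochondrial acyl-CoA thioesterase, rose to 26.2 ± 12.1 FPKM under LA, against 6.14 ± 0.333 FPKM under PF (limma adjusted p = 0.005, n = 4 each), Vnn1, a pantetheinase, rose by 1.00 (adjusted p = 0.0083) and Cyp4a10, a fatty acid omega-hydroxylase, by 0.49 (adjusted p = 0.0129). Pck1, the gluconeogenic enzyme, and Pdk4, which restrains pyruvate dehydrogenase, had log2 differences of 0.03 and -0.77 (adjusted p of 0.97 and 0.078), and Pdk4 reached an adjusted p of 0.0358 without PF replicate 2. Macrophage markers summed to 201 to 273 FPKM in LA liver and 152 to 182 FPKM in PF liver, and their part in these results was not tested.

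With all 16 libraries in one model 4 of the 12 genes did not pass, Thrsp (adjusted p = 0.257), Cyp4a10 (0.102), Aadac (0.062) and Scd1 (0.0567). Of the 12 genes, 7 passed with each liver library left out in turn, namely Aadac, Trib3, Pklr, Thrsp, Acot2, Cyp4a10 and Vnn1. Acly did not pass without LA replicate 2 or PF replicate 3 or 4 (adjusted p up to 0.077), nor Dgat2 without LA replicate 1 or 2 or PF replicate 3 or 4 (up to 0.070). Elovl6 did not pass without LA replicate 1, 2 or 4 or PF replicate 3 or 4 (up to 0.066), nor Scd1 without LA replicate 2 or PF replicate 1, 2 or 4 (up to 0.067). Trib1 did not pass without any of the LA replicates or without PF replicate 1 or 2 (up to 0.102).

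**Figure D5:**
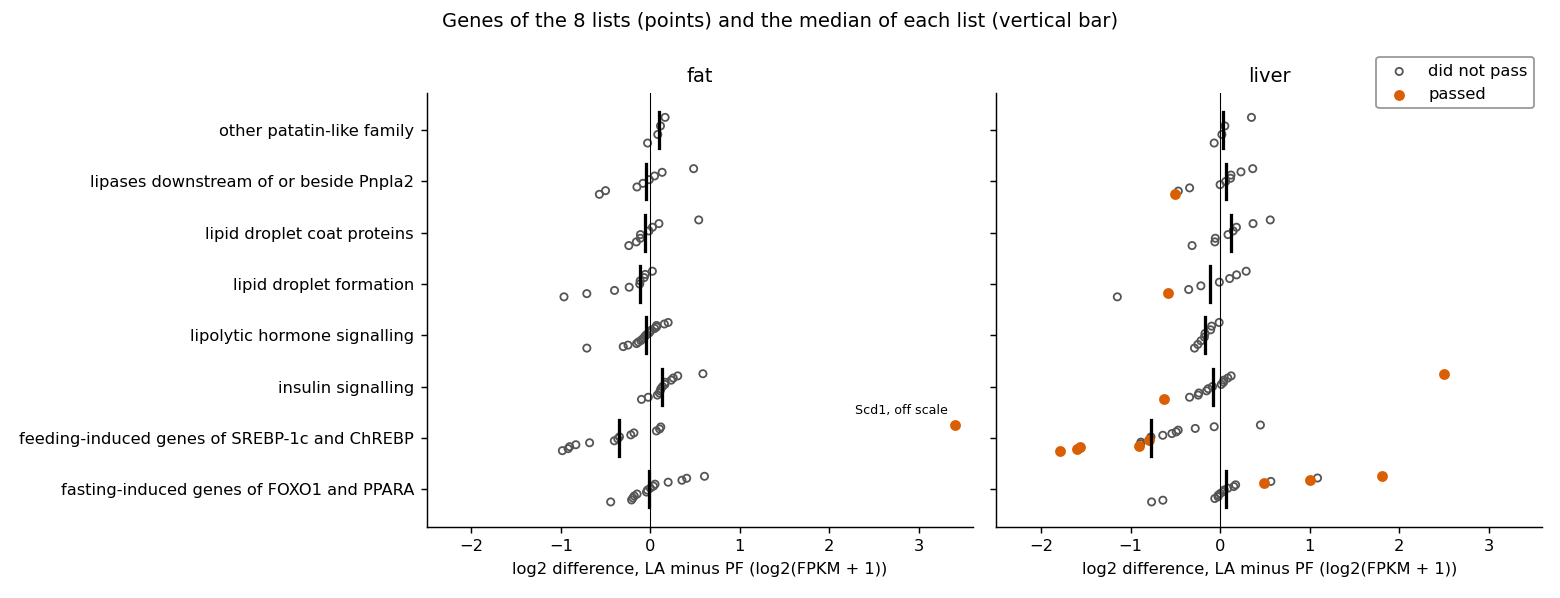
Difference LA minus PF on the log2(FPKM + 1) scale of each tested gene of the 8 lists, in fat (left) and liver (right); filled points passed limma at an adjusted p under 0.05, open points did not, and the vertical bar is the median of the list. The list induced by feeding has the lowest median in both tissues, -0.35 in fat and -0.78 in liver, and Scd1 in fat lies beyond the axis.

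In fat 88 genes of the lists were tested and 1 passed, Scd1, which averaged 1667 ± 1311 FPKM in LA fat (SD, n = 4) but had a value of 0 in each PF fat library, so its log2 difference is no measure of size. The list induced by feeding had a median of -0.35 in fat, with 10 of 14 genes lower in mean, and the list induced by fasting one of -0.02, beside 0.01 for all genes. Lipe, the lipase after Pnpla2, stood at 262 ± 25.7 FPKM in LA fat and 253 ± 19.4 FPKM in PF fat, and Plin1, the coat protein that holds Abhd5, at 552 ± 55.7 and 559 ± 62.9 FPKM (LA and PF, SD, n = 4 each). Lpl, which frees fatty acids from lipoproteins, had a log2 difference of -0.57 and Adrb3, the adrenergic receptor of fat cells, one of -0.71. Plin2 had one of 0.54 and Cidec one of -0.16. None of these 6 passed (limma adjusted p = 0.9997 each). For Lpl the diets did not overlap, with 1840 to 2562 FPKM under LA and 2582 to 4005 FPKM under PF. Nor did they for Adrb3, with 8.98 to 18.7 FPKM under LA and 20.2 to 29.1 FPKM under PF. The others overlapped, and 2.08% of all genes tested in fat had no overlap. Macrophage markers summed to 1236 to 2461 FPKM in LA fat and 885 to 1323 FPKM in PF fat, and their part in these values was not tested.

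Of the list genes, Trib3, Acot2 and Scd1 passed for the difference between the tissues. Trib3 had a fat minus liver difference of the LA effect of -1.91 (limma adjusted p = 0.0449) and did not pass in 12 of the 16 fits that leave out a single library (highest adjusted p 0.106). Acot2 had one of -1.81 (adjusted p = 0.026) and did not pass in 7 of them (up to 0.0687). The value of Scd1 rests on its listed 0 in PF fat.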

How the data were processed

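TRIzol and then RNeasy columns gave the RNA, which was sequenced from TruSeq V2 libraries, per the labels' protocols. That kit does not mark strand, so reads of overlapping antisense genes cannot be told apart. CASAVA 1.8.2, TopHat and Cuffdiff were run, per the submitters' processing notes, with build and annotation not given in the sources used here. FPKM per gene symbol and library is what the authors deposited, per the file headers. The files hold no counts, so depth is known only relative to other libraries, from the steps between low values.

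FPKM was fitted on the log2(FPKM + 1) scale by limma 3.58.1 (R 4.3.3, mean-variance trend, Benjamini-Hochberg adjustment, two-sided). A gene was tested where at least 4 libraries of the fit reached 1 FPKM. This scale understates changes of low genes. A call needed an adjusted p under 0.05, with a log2 difference over 1 in size as well between tissues. Each tissue had its own fit for the diets, and a fit of all 16 libraries gave the difference of the LA effects. Liver and fat libraries of the same rat cannot be matched from the labels and entered as independent. The fit was tested on simulated data.

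The 5 genes and all lists were chosen with earlier results of these data known. The genes named are those 5, the 5 nearest genes of each with a log2 span of at least 2 in a tissue (unnamed models left out), every list gene that passed, at most 6 a list, and a fixed group of lipid genes. Pnpla7, Mgll, Adrb3, the genomic neighbours and single markers were named after their values were seen. For Pnpla3 in fat, 1 of the 5 nearest genes is not reported here. Of 111 list genes, 97 matched by symbol and 8 by an older name in the RefSeq table of GRCr8, and 6 (Plin5, Hilpda and Mlxipl among them) are not used here. As alternatives, each library was left out in turn, the pseudocount was set to 0.1, the filter or the trend was dropped, values were centred on the median, replicate numbers were added as a block, all 16 libraries shared a model, and the threshold was an adjusted p under 0.1. Ratios of group means with each library left out were added after seeing the data. Figures were drawn with matplotlib 3.10.9.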

Additional observations from a re-analysis of the deposited data

Results flagged for a closer look

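Within groups of 4 libraries, a value was singled out where its gap to the nearest other library, as a share of the group's range, was above Dixon's 95% critical value. Of 93 groups examined 6 met this, and chance flags about 1 in 20 groups. Pnpla3 in LA liver replicate 3 stood at 37.5 FPKM, above the 6.04 to 10.1 FPKM of the other 3. Srebf1 in LA liver replicate 2 was at 186 FPKM, the highest of its group. Trib1 in PF liver replicate 4 was at 14.3 FPKM, also the highest of its group. In fat, Lipe in PF replicate 4 was low at 224 FPKM, Plin1 in LA replicate 2 high at 635 FPKM and Pck1 in PF replicate 4 low at 373 FPKM. The LA effect differed between the tissues by limma's test of the difference for 3 list genes, by -1.91 for Trib3, -1.81 for Acot2 and 12.10 for Scd1 (fat minus liver, log2 scale), the last resting on the value listed at 0 in PF fat.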

How the results depend on the processing

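The log2 differences between the diets of the 5 genes kept their sign under every alternative, except Abhd5 in fat. They also stayed within 1 SD of the replicates, but most alternatives could not have moved them further. Leaving out 1 of 4 libraries cannot shift a difference by 1 SD. The filter, the trend, the block and the shared model leave these differences unchanged, so nothing is read from this. With 1 library left out they ranged in liver from 0.43 to 0.57 for Pnpla2, -4.28 to -3.46 for Pnpla3, -2.82 to -2.07 for Pnpla5, -0.47 to -0.37 for Abhd5 and 0.40 to 0.86 for G0s2. In fat they ranged from 0.06 to 0.22 for Pnpla2, -1.45 to -0.83 for Pnpla3, -0.14 to 0.03 for Abhd5 and 0.05 to 0.27 for G0s2. With a pseudocount of 0.1 Pnpla5 in liver was at -2.86, and its tissue difference under PF was -6.86, against -4.30.

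In liver 435 genes passed, and 848 at an adjusted p under 0.1. With 1 library left out it was 208 (without LA replicate 2) to 404, with 267 without PF replicate 1, and list genes 8 to 13 against 12. Without a filter 7 list genes passed. In fat 2 genes passed, 1 with a pseudocount of 0.1, 7 with all 16 libraries in one model and 0 to 2 with 1 library left out, with 0 to 1 list genes. The difference gave 46, with 22 without a filter, 94 at an adjusted p under 0.1 and 19 (without PF fat replicate 1) to 60 with 1 left out. Its list genes were 3, 1 without a filter and 1 to 4 with 1 left out. The cause was not tested. The tissue counts stayed within 1.5 times of 5372 under LA and 5447 under PF.

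The deviations of same-numbered libraries had correlations of -0.43 to 0.29 between groups, and of -0.225 to 0.291 between fat and liver of a diet. Tissues of the same rat need not deviate alike, so these values cannot tell whether the numbers pair rats. With the number as a replicate block 476 genes passed in liver, 1 in fat and 37 for the difference. Read totals are unknown, so no interval for counting error can be given, and Pnpla5, under 1 FPKM in fat, was not compared between the diets there.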
